A study of Mus musculus with 12 samples.

Results

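Nuclear pore proteins and the receptors that carry cargo through the pore were followed in a mouse B cell lymphoma line. The members are the protein-coding genes of GENCODE M21 whose symbol is Nup followed by a digit, Xpo or Ipo followed by a digit, or begins with Kpna, Kpnb or Tnpo. The rule used gene names and no measured value, and it found 43 of the 51826 genes in the files, namely 21 Nup genes and 22 transport receptors. Of these, 39 had enough reads to be tested, among 10477 tested genes in all.

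The cells are 19DN, a subline of the lymphoma line 19PP that was sorted for loss of its GFP and hCD2 reporters after transfection with a Flp plasmid. 19PP arose in a Rag2-/-γC-/- mouse that had received bone marrow carrying Cγ1-Cre and Myc/P110*flSTOP, so all groups share this origin. RPL12, also called uL11, is a protein of the large ribosomal subunit, and the 3 lines carry it as WT, as S38A (alanine in place of serine at position 38) or as S38D (aspartate at that position). How the 3 lines were made, and whether each is a single clone, is not given in the sources used here. Each line was sampled asynchronous, or mitotic after 100 ng/mL nocodazole for 8 h and a release of 10 min, and cells of every group were collected in cycloheximide (100 µg/mL), which stalls ribosomes. Nocodazole blocks spindle assembly and holds cells in mitosis, so mitosis and exposure to the drug cannot be told apart here. There were 2 libraries in each of the 6 groups, and nothing in the labels says that they came from separate cultures, so p-values measure the spread between these libraries, which may be technical.

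The nuclear pore is a channel through the nuclear envelope. Its outer ring (the Y complex) and inner ring form the scaffold, FG nucleoporins with phenylalanine-glycine repeats fill the channel, and further nucleoporins form the cytoplasmic filaments and the nuclear basket. Importins bind cargo in the cytoplasm and release it in the nucleus when they meet Ran-GTP, importin alpha proteins act as adaptors between many cargoes and importin beta, and exportins carry cargo out together with Ran-GTP. In mitosis of animal cells the envelope opens and the pores come apart, some of the scaffold moves to kinetochores, importins and Ran-GTP regulate spindle assembly, and pores are rebuilt around the chromosomes as cells leave mitosis.

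RNA was read from the 3′ ends of polyadenylated transcripts in cleared polysome lysates, with 3432875 to 6587997 gene reads per library (median 5548100). Levels are given as CPM, a gene's reads per 1000000 gene reads of the library, with the totals scaled by edgeR's TMM factors. A count of 3 reads, the limit that 0 reads allows, was 0.455 CPM in the deepest library and 0.874 CPM in the shallowest, and such limits cover counting error only. The summed level of 10 B cell markers was 2470 to 3483 CPM in asynchronous and 1566 to 2331 CPM in mitotic libraries, where 7 of the 9 tested markers fell. Of the T and NK cell markers 6 of 9 had no read (Cd3e, Cd3g, Cd4 and Cd8a among them), and the list summed to 2.83 to 7.42 CPM, while 8 myeloid markers summed to 0 to 2.54 CPM and 10 stromal, epithelial and erythroid markers to 1.98 to 6.73 CPM. Mitochondrial transcripts made up 1.23% to 1.86% of gene reads in asynchronous and 1.68% to 2.35% in mitotic libraries. Replicates lay far apart in 2 groups: among 7062 genes of at least 10 CPM, 6.88% differed over 2-fold between the S38D asynchronous libraries and 2.92% between the WT mitotic libraries, against at most 0.467% in each other group. The 3′ reads do not show codon 38, so the line of each library is taken from its label.

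The tested members spanned mean levels of 2.46 to 491 CPM over the 12 libraries with a median of 34.1 CPM, and 34 of the 39 reached 10 CPM. All tested genes had a median of 22.4 CPM. Because a 3′ protocol gives about a read per captured transcript, these values are not divided by transcript length. The 4 members without a test were Kpna2 with 1 read in 12 libraries, Kpna7 with 0 reads, Nup62cl with 3 and Nup210l with 52. A count of 0 in all libraries allows Kpna7 up to 0.0466 CPM.

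Kpna2, importin alpha 1, is the adaptor best known in dividing cells, and its count needs a limit of its own. The last 300 bases of its transcript matched Gm10184 and Gm10259 at 100% identity, and they matched further processed pseudogenes at 95.4% to 98.7%. Those copies held 0 to 2 reads each. Such a match also lay in a transcript of Med20 (96.7% identity, 3496 reads). How the counting treated reads with several matches is not given in the sources used here, so the level of Kpna2 is uncertain. Ipo4, Xpo4, Nup35 and Tnpo1 also have matches of at least 95% identity over 100 bases or more, each at 0 reads or not in the files. Nup214 matched Gm16534 (100 bases at 100% identity, 0 reads), which overlaps its end on the opposite strand. Genes on the opposite strand overlap the last 500 bases of Nup88 (Rabep1, 1601 reads), Nup43 (Pcmt1, 12875 reads) and Tnpo3 (Irf5, 16165 reads), and Il4i1 (333 reads) overlaps Nup62 on the same strand. Reads of such neighbours could be counted with these members.

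**Figure D1:**
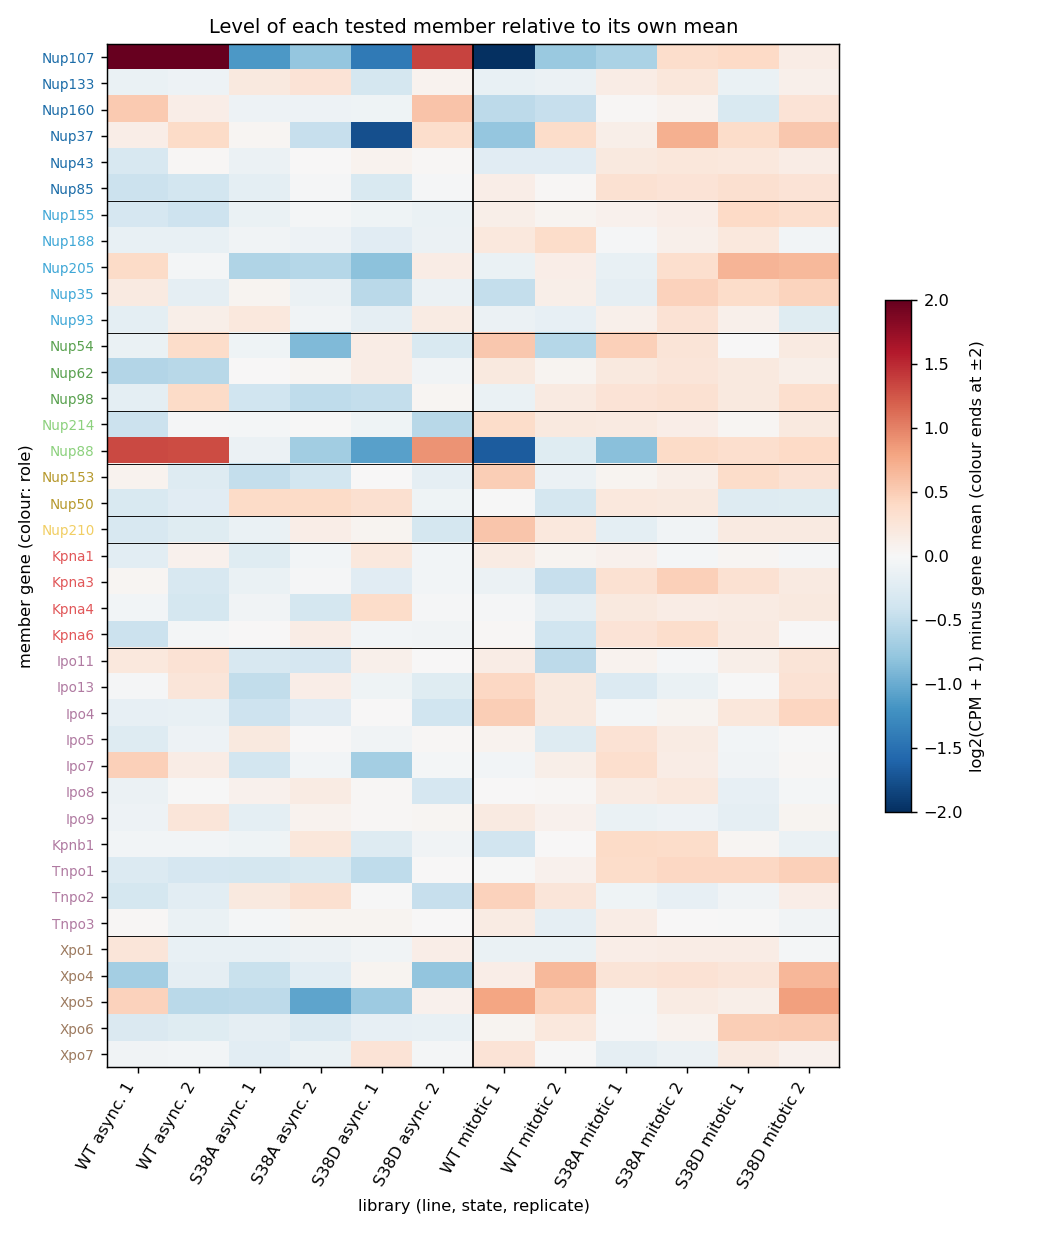
Each row is a tested member and each column a library (line, state and replicate); colour is log2(CPM + 1) minus the gene's mean over the 12 libraries, with the scale ending at ±2. Most rows are pale; Nup107, Nup88 and Nup37 change most between libraries, including between replicates of S38D asynchronous and of WT mitotic cells.

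Mitotic and asynchronous cells were compared first as the mean of the 3 lines, which asks what the block in mitosis did to the transcripts of the transport machinery. Of the 39 tested members 13 rose and none fell (edgeR's quasi-likelihood test, adjusted p under 0.05). The members that rose were 33.3% of those tested, against a background of 20.5% of all tested genes called higher, 21.6% called lower and 42.1% called in either direction. At an unadjusted p under 0.05 there were 14 higher and 0 lower members, beside 2541 higher and 2705 lower of all 10477 tested genes. DESeq2 called 10 members higher and 0 lower, beside 15.3% and 16.2% of all tested genes. The median log2 fold change of the members was 0.16, with 33 of 39 above 0, beside a median of -0.02 over all tested genes. In 6 members, Nup85, Nup155, Nup188, Nup214, Xpo4 and Xpo6, every mitotic library lay above every asynchronous library, a pattern found in 5.79% of all tested genes, and 0 members showed the opposite pattern, found in 4.84%.

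Scaling by the ERCC spike-ins, RNA added in a fixed amount, lowered the median of all genes by 0.18 on the log2 scale (a shift of -0.18). Under it 4 members rose (Ipo4, Tnpo1, Xpo4 and Xpo5) and 2 fell (Nup50 and Nup160), against 9.88% and 31.9% of all tested genes. Relative to the median of all genes, the members' median was 0.19 higher under either scaling. A change of scaling moves all genes by about the same amount, so this match was fixed in advance and tests nothing. With the S38D asynchronous and WT mitotic replicate 1 libraries left out, 13 members rose (Nup153 lost its call and Tnpo2 gained one) and 2, Nup107 and Nup50, fell. The share of all tested genes called in that fit is not given here, so its counts are no result about the members. The fall of the B cell markers and the higher mitochondrial share accompany the mean mitotic comparison, and their part in the result was not tested. In bulk RNA, fewer cells with a transcript and less of it per cell cannot be told apart.

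In the outer ring 1 of 6 members, Nup85, rose. Nup85 (chr11:115564434-115583985, + strand) is a subunit of the Y complex scaffold. It ranged from 168 to 223 CPM in asynchronous libraries (median 190 CPM) and from 229 to 283 CPM in mitotic libraries (median 274 CPM). The 2 states did not overlap, and the log2 fold change was 0.44 (SE 0.0670, adjusted p = 6.3e-05, n = 6 libraries per state, edgeR). Of the others, Nup133, Nup43 and Nup37 had log2 fold changes of 0.03, 0.11 and 0.37, and Nup160 and Nup107 of -0.37 and -1.02, with adjusted p from 0.129 to 0.852. Nup107, Nup133 and Nup160 are scaffold subunits of this complex too, and Nup37 and Nup43 are its smaller subunits.

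In the inner ring 3 of 5 members rose: Nup155, Nup188 and Nup205. Nup155 (chr15:8109273-8161247, + strand), which joins the ring to the membrane, ranged from 21.5 to 28.3 CPM in asynchronous libraries (median 26.5 CPM) and from 30.1 to 38.7 CPM in mitotic libraries (median 31.7 CPM). Its log2 fold change was 0.39 (SE 0.0844, adjusted p = 0.00161, edgeR). Nup188 (chr2:30286397-30344266, + strand), a large scaffold protein, lay at 146 to 163 CPM (median 155 CPM) against 165 to 220 CPM (median 190 CPM), a log2 fold change of 0.28 (SE 0.0671, adjusted p = 0.00329, edgeR). The states were apart for both genes.

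Nup205, the paralogue of Nup188, overlapped between the states, with 7.80 to 19.4 CPM (median 11.8 CPM) in asynchronous and 13.0 to 24.1 CPM (median 17.4 CPM) in mitotic libraries. Its log2 fold change of 0.51 (SE 0.169) had an adjusted p of 0.0247 (edgeR), and the call was lost with DESeq2 (adjusted p = 0.0565) and without any of 7 single libraries (adjusted p 0.0545 to 0.0803). Nup93, the hub of the inner ring, lay at 424 to 564 CPM and 411 to 596 CPM in the 2 states, with a log2 fold change of -0.02 (adjusted p = 0.904, edgeR). Nup35 had one of 0.27 (adjusted p = 0.183, edgeR).

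Among the FG nucleoporins of the channel, Nup62 rose and Nup98 and Nup54 did not pass the test. Nup62 (chr7:44816088-44830812, + strand), the core of the central channel complex, ranged from 259 to 434 CPM (median 384 CPM) in asynchronous and from 408 to 463 CPM (median 446 CPM) in mitotic libraries. The log2 fold change was 0.34 (SE 0.0608, adjusted p = 0.000339, edgeR); the states overlapped because the S38D asynchronous replicate 1 library stood at 434 CPM. Nup98, whose FG repeats help form the permeability barrier, was low, at 1.38 to 3.40 CPM against 2.08 to 3.26 CPM. Its log2 fold change of 0.55 (SE 0.249) missed the threshold (adjusted p = 0.0864, edgeR) and passed it without S38D asynchronous replicate 2 (0.69, adjusted p = 0.0437).

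On the cytoplasmic side Nup214, an FG protein that binds the exporter Xpo1, rose, with 26.9 to 39.7 CPM (median 38.2 CPM) in asynchronous and 41.0 to 51.6 CPM (median 45.6 CPM) in mitotic libraries. Its log2 fold change was 0.38 (SE 0.102, adjusted p = 0.00731, edgeR). In the basket Nup153, an FG protein that docks importins and helps place new pores, lay at 7.41 to 11.3 CPM against 9.87 to 15.5 CPM, a log2 fold change of 0.45 (SE 0.140, adjusted p = 0.0175, edgeR). That call was lost without WT mitotic replicate 1 (0.32, adjusted p = 0.0891), without WT asynchronous replicate 2 (0.39, adjusted p = 0.0504) and with DESeq2 (adjusted p = 0.111). Nup50, a basket protein that helps release importin alpha, had a log2 fold change of -0.16 (adjusted p = 0.123, edgeR).

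Nup210, a transmembrane nucleoporin, lay at 44.7 to 62.4 CPM (median 50.1 CPM) against 49.5 to 84.3 CPM (median 64.9 CPM). Its log2 fold change of 0.29 (SE 0.0936, adjusted p = 0.0205, edgeR) lost its call with DESeq2 (adjusted p = 0.0515) and without any of 5 single libraries (adjusted p 0.0546 to 0.0803), WT mitotic replicate 1 among them (0.23).

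None of the 4 tested importin alpha genes (Kpna1, Kpna3, Kpna4 and Kpna6) was called, and 0 of them had an unadjusted p under 0.05 in edgeR. DESeq2 also called none of them. Their log2 fold changes were 0.09 to 0.24, and Kpna3 had the smallest p (12.8 to 16.6 CPM in asynchronous and 11.4 to 22.9 CPM in mitotic libraries, adjusted p = 0.107, edgeR).

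In the importin beta family 2 of 11 members rose. Tnpo1 (chr13:98839019-98926384, - strand), or transportin 1, imports RNA-binding proteins such as hnRNPs. It ranged from 46.8 to 67.0 CPM (median 53.0 CPM) in asynchronous and from 66.7 to 92.9 CPM (median 87.9 CPM) in mitotic libraries. The highest asynchronous and the lowest mitotic library were level, and the log2 fold change was 0.59 (SE 0.0863, adjusted p = 4.6e-05, edgeR). Ipo4 (chr14:55625400-55635957, - strand), which imports histones and ribosomal proteins, lay at 49.9 to 66.7 CPM (median 57.9 CPM) against 64.7 to 93.5 CPM (median 76.9 CPM). Its log2 fold change was 0.45 (SE 0.0898, adjusted p = 0.000731, edgeR). Kpnb1, importin beta itself and the partner of importin alpha, had 108 to 151 CPM against 99.2 to 170 CPM, a log2 fold change of 0.10 (SE 0.0823, adjusted p = 0.344, edgeR) that turned to -0.08 under spike-in scaling.

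Of the exportins 3 of 5 rose. Xpo6 (chr7:126101715-126200501, - strand) carries actin with profilin out of the nucleus. It was even in asynchronous libraries, at 20.9 to 23.2 CPM (median 22.1 CPM), and lay at 25.3 to 37.0 CPM (median 28.4 CPM) in mitotic libraries, a log2 fold change of 0.45 (SE 0.0885, adjusted p = 0.000738, edgeR). Xpo4 and Xpo5 were low. Xpo4 had 3.0 to 6.21 CPM against 6.61 to 9.97 CPM (log2 fold change 0.86, SE 0.205, adjusted p = 0.00314, edgeR). Xpo5, the exporter of pre-miRNA hairpins, had 2.07 to 7.82 CPM against 5.24 to 10.3 CPM (log2 fold change 0.85, SE 0.248, adjusted p = 0.0122, edgeR), and the WT asynchronous replicate 1 and S38D asynchronous replicate 2 libraries, at 7.82 and 5.83 CPM, lay within the mitotic range. Its call was lost without S38D mitotic replicate 2 (0.70, adjusted p = 0.0515). Xpo1, the main exporter of proteins with a leucine-rich signal, had 62.7 to 83.3 CPM against 63.6 to 77.3 CPM, and its log2 fold change of 0.03 (SE 0.0827, adjusted p = 0.780, edgeR) changed sign under spike-in scaling (-0.14) and without each of 3 single libraries.

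**Figure D2:**
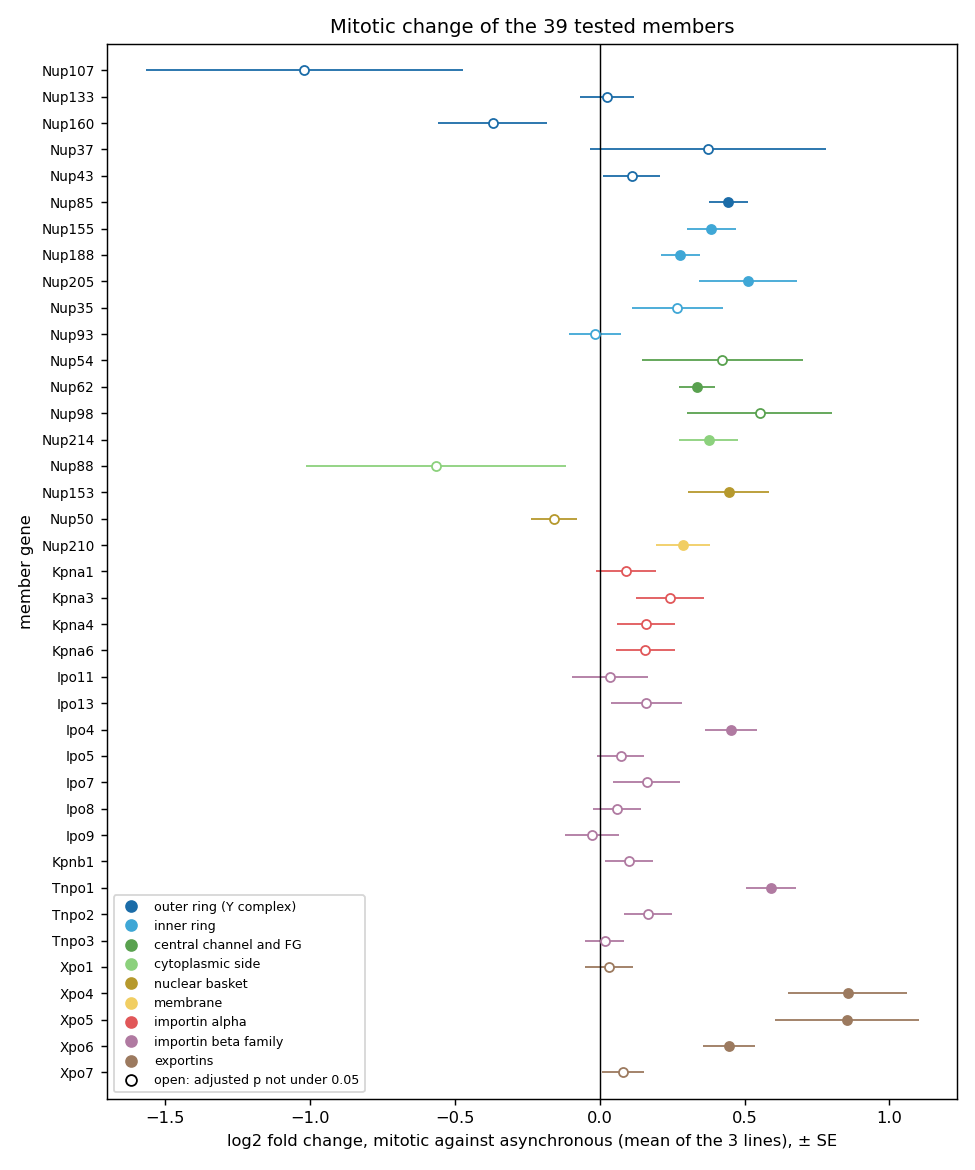
Each point is the log2 fold change of a tested member, mitotic against asynchronous as the mean of the 3 lines. Bars are ± SE and colour marks the role. Filled points passed the test and open points did not. All 13 filled points lie above 0. Nup107, Nup88 and Nup37 have the widest bars.

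**Figure D3:**
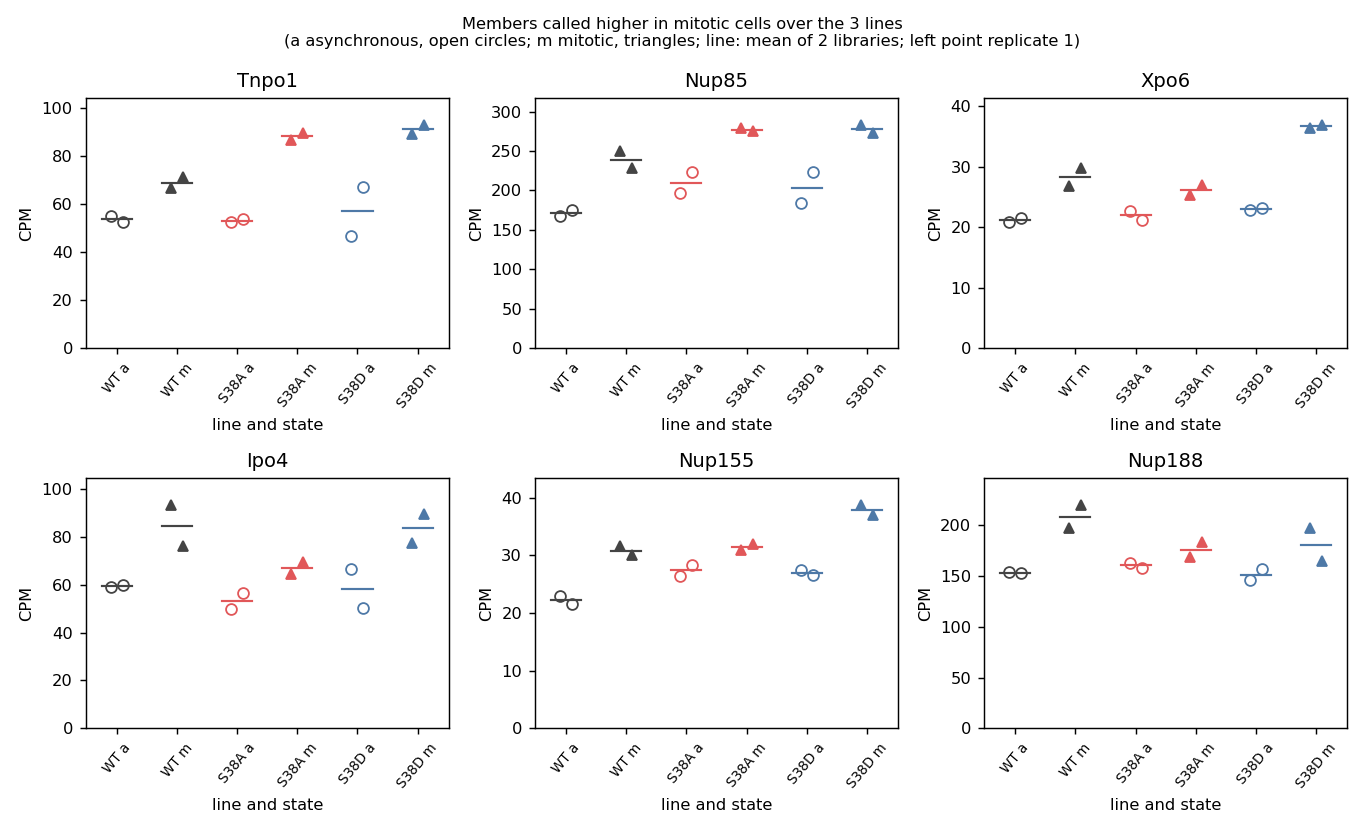
CPM of 6 members in every library, grouped by line and state, on linear axes from 0; the short line is the mean of 2 libraries. In all 6 panels the mitotic mean of each line lies above its asynchronous mean.

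Promoter sequences are shown for 4 of the members that rose, 2 import receptors, an exportin and a channel nucleoporin. They were taken among the called members with the largest changes or smallest p in a role, and not every such member is shown. RefSeq's table (GRCm38.p6) held windows of 250 bases before to 50 after the start for 34 of the 43 members, 41 windows in all. Each sequence runs 5′ to 3′ on the gene's strand, and capitals mark matches on either strand to CCAAT, the box bound by NF-Y, to both core forms of the CHR element of cell cycle genes, TTTGAA and, as a variant of it, TTCGAA, to the E-box CACGTG, bound by MYC and its relatives, to CCGGAAGT, a site form of ETS factors, or to the palindromic motif of NRF1.
Tnpo1 (chr13:98926335-98926634, - strand): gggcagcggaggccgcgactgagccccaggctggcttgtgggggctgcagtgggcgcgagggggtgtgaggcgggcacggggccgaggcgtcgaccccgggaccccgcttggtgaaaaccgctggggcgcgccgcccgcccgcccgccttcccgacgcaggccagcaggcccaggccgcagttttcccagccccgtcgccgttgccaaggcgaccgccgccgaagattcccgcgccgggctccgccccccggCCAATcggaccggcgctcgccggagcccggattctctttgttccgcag
Ipo4 (chr14:55635635-55635934, - strand): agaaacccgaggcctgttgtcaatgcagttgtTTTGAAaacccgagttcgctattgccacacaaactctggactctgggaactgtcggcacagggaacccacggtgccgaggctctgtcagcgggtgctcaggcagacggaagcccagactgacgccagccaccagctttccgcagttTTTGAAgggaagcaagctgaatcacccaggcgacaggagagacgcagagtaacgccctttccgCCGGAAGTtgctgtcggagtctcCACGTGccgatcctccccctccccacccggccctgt
Xpo6 (chr7:126200452-126200751, - strand): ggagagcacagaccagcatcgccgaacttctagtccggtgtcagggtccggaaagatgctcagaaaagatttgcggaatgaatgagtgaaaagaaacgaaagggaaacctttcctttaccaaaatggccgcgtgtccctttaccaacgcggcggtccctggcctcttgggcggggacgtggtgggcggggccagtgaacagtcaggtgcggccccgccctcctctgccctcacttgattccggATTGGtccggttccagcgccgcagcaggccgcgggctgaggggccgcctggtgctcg
Nup62 (chr7:44815838-44816137, + strand): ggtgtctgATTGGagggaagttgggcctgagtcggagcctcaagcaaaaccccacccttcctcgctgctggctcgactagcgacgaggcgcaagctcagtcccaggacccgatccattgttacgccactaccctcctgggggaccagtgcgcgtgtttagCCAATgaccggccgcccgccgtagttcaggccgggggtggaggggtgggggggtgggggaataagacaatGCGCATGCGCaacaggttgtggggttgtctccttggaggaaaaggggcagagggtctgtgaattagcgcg
Tnpo1, Xpo6 and Nup62 each hold CCAAT in at least 1 orientation, and Nup62 also holds the NRF1 palindrome, the last capitals in its line. Ipo4 has no CCAAT in this window. It holds TTTGAA, an ETS form and an E-box.

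The matches were then counted over all windows of this length. Of the 13 members that rose 11 had a window, and CCAAT was present in 5 of these (45.5%; Nup62, Nup155, Nup214, Tnpo1 and Xpo6). The 4 printed windows thus hold it more often than the risen members do, and a further window of Tnpo1 holds none of these words. Nup205 and Nup153 were also among the called members with the largest changes. Their windows, not printed, hold none of these words either. Over all members with a window CCAAT was present in 20 of 34 members (58.8%) and in 41.1% of all 27025 genes with a window. The NRF1 palindrome was present in 4 members, Nup50, Nup62, Nup107 and Xpo5 (11.8%), and in 1.07% of all genes. CACGTG was found in 6 members (17.6% against 8.09%) and CCGGAAGT in 4 (11.8% against 4.31%). TTTGAA was found in 7 (20.6% against 20.2%) and TTCGAA in 1, Ipo11 (2.94% against 1.80%). The windows of the members were rich in G and C, with a median of 64.3% beside 52.7% for all windows, which bears on counts of GC-rich words. No match of one of these words overlapped a match of another in the members' windows. A match is a description of letters and not a bound site.

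Each line was then tested alone, which asks whether the mitotic pattern is present in cells with WT, S38A and S38D RPL12. In WT cells 8 members rose (Ipo4, Nup62, Nup85, Nup155, Nup188, Nup210, Nup214 and Tnpo2) and 2 fell (Nup107 and Nup160), against a background of 13.4% of tested genes called higher, 12.7% lower and 26% either way. In S38A cells 2 rose (Nup85 and Tnpo1) and 0 fell, against 6.72% and 8.06% (14.8% either way). At an unadjusted p under 0.05 there were 12 higher and 1 lower, beside 1445 higher and 1550 lower of all 10477 tested genes. DESeq2 called 2 members higher and 0 lower in S38A cells. In S38D cells 7 rose (Ipo4, Nup35, Nup85, Nup155, Nup205, Tnpo1 and Xpo6) and 1 fell (Nup50), against 11.6% and 14.8% (26.4% either way). The sign was positive in all 3 lines for 16 of 39 members and negative in all 3 for 0. A call in one line and not in another is no difference between lines and that difference was tested separately.

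Nup85 was called in each of the 3 lines. It stood at 168 and 176 CPM in WT asynchronous and 250 and 229 CPM in WT mitotic libraries (log2 fold change 0.48, SE 0.117, adjusted p = 0.00738, edgeR). In S38A cells it stood at 197 and 223 CPM against 279 and 275 CPM (0.40, SE 0.116, adjusted p = 0.0280, edgeR), and in S38D cells at 184 and 223 CPM against 283 and 273 CPM (0.45, SE 0.116, adjusted p = 0.00840, edgeR). In every line both mitotic libraries exceeded both asynchronous ones. Of the 39 tested members, 13 showed this in the WT, 27 in the S38A and 20 in the S38D line. The opposite was found in 5, 2 and 2. Under spike-in scaling the call was lost in every line. The log2 fold change was then 0.03 in WT (adjusted p = 0.903), 0.41 in S38A (adjusted p = 0.169) and 0.33 in S38D cells (adjusted p = 0.209, edgeR). The call in S38A cells was also lost without any of 6 single libraries. In WT cells it was lost without WT asynchronous replicate 1 (0.44, adjusted p = 0.0820) or WT mitotic replicate 1 (0.44, adjusted p = 0.0563), and in S38D cells without S38D mitotic replicate 1 (0.41, adjusted p = 0.0638).

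Tnpo1 was called in the S38A and S38D lines. It stood at 52.3 and 53.6 CPM in S38A asynchronous and 86.8 and 89.5 CPM in S38A mitotic libraries (0.73, SE 0.149, adjusted p = 0.00329, edgeR). In S38D cells it stood at 46.8 and 67.0 CPM against 89.0 and 92.9 CPM (0.68, SE 0.148, adjusted p = 0.00311, edgeR). In WT cells it stood at 54.9 and 52.4 CPM against 66.7 and 71.1 CPM, and the log2 fold change of 0.36 (SE 0.152) did not pass (adjusted p = 0.0936, edgeR). In S38A cells the call was lost without S38A asynchronous replicate 1 (0.69, adjusted p = 0.0542), and in S38D cells under spike-in scaling (0.54, adjusted p = 0.0701). The difference between the lines was not called either: S38A minus WT was 0.38 (adjusted p = 0.346) and S38D minus WT 0.32 (adjusted p = 0.413, edgeR).

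Ipo4 and Nup155 were called in the WT and S38D lines. Ipo4 stood at 59.1 and 60.1 CPM against 93.5 and 76.1 CPM in WT cells (0.51, SE 0.157, adjusted p = 0.0248, edgeR) and at 66.7 and 50.2 CPM against 77.7 and 89.7 CPM in S38D cells (0.52, SE 0.155, adjusted p = 0.0208, edgeR). Nup155 stood at 22.9 and 21.5 CPM against 31.5 and 30.1 CPM in WT cells (0.47, SE 0.151, adjusted p = 0.0311, edgeR). In S38D cells Nup155 stood at 27.4 and 26.5 CPM against 38.7 and 37.0 CPM (0.49, SE 0.144, adjusted p = 0.0192, edgeR). In these pairs the 2 mitotic libraries lay above the 2 asynchronous ones, as in 13 of the 39 tested members in WT and 20 in S38D cells. None of these calls was kept under spike-in scaling. Ipo4 was then at 0.07 in WT (adjusted p = 0.772) and 0.42 in S38D cells (adjusted p = 0.0832, edgeR). Nup155 was at 0.04 in WT (adjusted p = 0.9) and 0.38 in S38D cells (adjusted p = 0.159, edgeR). In WT cells the call of Ipo4 was lost with DESeq2 (adjusted p = 0.0527) and without WT asynchronous replicate 1, WT asynchronous replicate 2 or WT mitotic replicate 1 (adjusted p 0.0863 to 0.196), and that of Nup155 with DESeq2 (adjusted p = 0.173) and without any 1 of the 4 WT libraries (0.0719 to 0.130). In S38D cells Ipo4 lost its call without S38D asynchronous replicate 2 (0.32, adjusted p = 0.101) or S38D mitotic replicate 2 (0.40, adjusted p = 0.194), and Nup155 with DESeq2 (adjusted p = 0.104) and without either S38D mitotic library (0.0781 and 0.115).

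Further members moved in a single line. The WT rises among them lost their calls under spike-in scaling (Nup62 0.26, Tnpo2 0.19 and Nup210 0.24). In WT cells Nup62 rose from 259 and 267 CPM to 447 and 408 CPM (0.70, SE 0.106, adjusted p = 0.000275, edgeR), and Tnpo2, a close relative of Tnpo1, rose from 129 and 142 CPM to 227 and 195 CPM (0.64, SE 0.144, adjusted p = 0.00434, edgeR), a call lost without WT asynchronous replicate 1 (0.57, adjusted p = 0.0695). Nup210 rose from 45.4 and 48.2 CPM to 84.3 and 66.3 CPM (0.69, SE 0.164, adjusted p = 0.00629, edgeR); its call was lost without WT mitotic replicate 1 (0.53, adjusted p = 0.0819) or WT asynchronous replicate 1 (0.64, adjusted p = 0.0739). In S38D cells Xpo6 rose from 22.9 and 23.2 CPM to 36.5 and 37.0 CPM (0.67, SE 0.150, adjusted p = 0.00366, edgeR).

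Calls of Nup205, Nup35 and Nup50 in the S38D line were also lost without single libraries, among them S38D asynchronous replicate 1 and either S38D mitotic library. Without S38D asynchronous replicate 1 the log2 fold change of Nup205 went from 0.99 (adjusted p = 0.0193) to 0.54 (adjusted p = 0.125), that of Nup35 from 0.77 (adjusted p = 0.0434) to 0.54 (adjusted p = 0.219) and that of Nup50 from -0.39 (adjusted p = 0.0435) to -0.17 (adjusted p = 0.305, all edgeR). Nup205 stood at 7.80 and 16.3 CPM in the 2 S38D asynchronous libraries, so the first of them was the low one, and Nup50 stood at 209 and 157 CPM.

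The counts per line moved with single libraries too. Here and in the comparisons below, the share of all tested genes called also moved and is given for only some fits. A changed count is thus no result about the members. In WT cells 1 member rose without WT asynchronous replicate 1, 3 without WT mitotic replicate 1 and 5 without either of the other WT libraries, each time with 0 lower; without S38D asynchronous replicate 1 or 2 there were 11 higher and 3 lower. The share of all tested genes called higher was 4.99% without WT asynchronous replicate 1 and 17.2% without S38D asynchronous replicate 1. In S38A cells 0 members were called without S38A asynchronous replicate 1, 1 without each of 5 other single libraries, and 3 higher and 1 lower without either S38D asynchronous library. In S38D cells 3 rose without either S38D mitotic library, where 6.76% and 5.68% of all tested genes were called higher. Under spike-in scaling, which moved the median of all genes by -0.44 in WT cells, 0 members rose and 5 fell in the WT line (Ipo7, Ipo11, Nup107, Nup160 and Xpo1), beside 2.07% and 30.9% of all tested genes.

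Nup107, Nup88 and Nup37, chosen after their values were seen, were the members of at least 10 CPM with over 2-fold between replicates. Nup107 (chr10:117750621-117792705, - strand), a Y complex subunit, stood at 97.4 and 111 CPM in WT asynchronous cells and at 3.97 and 11.8 CPM in WT mitotic cells. Nup107 stood at 8.67 and 11.6 CPM in S38A asynchronous and 12.8 and 26.2 CPM in S38A mitotic cells. In S38D cells Nup107 stood at 7.00 and 53.7 CPM asynchronous and 27.4 and 22.6 CPM mitotic. The 2 WT asynchronous libraries lay above the other 10, and the replicates of S38D asynchronous cells differed by 2.77 on the log2(CPM + 1) scale.

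The mitotic log2 fold change of Nup107 in WT cells was -3.74 (SE 0.993, adjusted p = 0.0375, edgeR). It kept its sign in every alternative run and was -3.10 (adjusted p = 0.192) without WT mitotic replicate 1 and -4.70 (adjusted p = 0.0809) without WT mitotic replicate 2. Its call was lost without any of 10 single libraries, with adjusted p from 0.0573 to 0.192. The asynchronous S38A line against WT gave -3.36 (SE 0.944, adjusted p = 0.0517, edgeR), which passed with DESeq2 (-3.35, adjusted p = 0.00333) and without S38D asynchronous replicate 1 (-3.33, adjusted p = 0.00389). Nup160, the other member that fell in WT cells, was low: 8.80 and 6.52 CPM against 3.78 and 3.95 CPM (-1.0, SE 0.346, adjusted p = 0.0429, edgeR). It had 20 and 18 reads in the WT mitotic libraries. The call of Nup160 was lost with DESeq2 (-0.99, adjusted p = 0.200). It was also lost without any single WT or S38A library, with -0.75 without WT asynchronous replicate 1, and without both libraries far from their replicates (-0.95).

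Nup88, the partner of Nup214 on the cytoplasmic side, was also high in WT asynchronous cells, at 169 and 168 CPM, and stood at 20.6 and 56.6 CPM in WT mitotic cells. It stood at 61.8 and 40.9 CPM in S38A asynchronous and 37.1 and 88.1 CPM in S38A mitotic cells, and at 31.0 and 126 CPM in S38D asynchronous and 85.1 and 89.1 CPM in S38D mitotic cells. The WT mitotic change of -2.14 (SE 0.804) missed the threshold in edgeR (adjusted p = 0.104) and passed with DESeq2 (-2.12, adjusted p = 0.0355). Nup37 stood at 6.21 and 30.1 CPM in S38D asynchronous and 13.2 and 30.3 CPM in WT mitotic cells, and between 16.7 and 38.8 CPM in the other 8 libraries. Its WT mitotic change of -0.38 became 0.14 without WT mitotic replicate 1, and its S38D change against WT in asynchronous cells of -0.65 became 0.11 without S38D asynchronous replicate 1; neither was called.

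The same genes moved between the replicates of both groups. Over the 34 members of at least 10 CPM, the difference of replicate 2 from replicate 1 in S38D asynchronous cells correlated with that in WT mitotic cells at r = 0.88, and over 6900 tested genes with a 3′ end sequence at r = 0.79. The S38A groups shared part of this. Over 5516 genes the replicate difference in S38A mitotic cells had r = 0.649 with S38D asynchronous and 0.611 with WT mitotic cells. That in S38A asynchronous cells had r = -0.454 with S38D asynchronous, -0.418 with WT mitotic and -0.44 with S38A mitotic cells. Genes are not independent replicates, and the members of a pair share a library, so these are descriptions. The GC content of the last 300 bases had r = -0.36 with the difference in S38D asynchronous cells and -0.19 in WT mitotic cells over the members, beside -0.37 and -0.21 over all genes. Members had a median GC of 40.5% in those bases, beside 43.0% for all. The part of GC content in these differences was not tested.

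**Figure D4:**
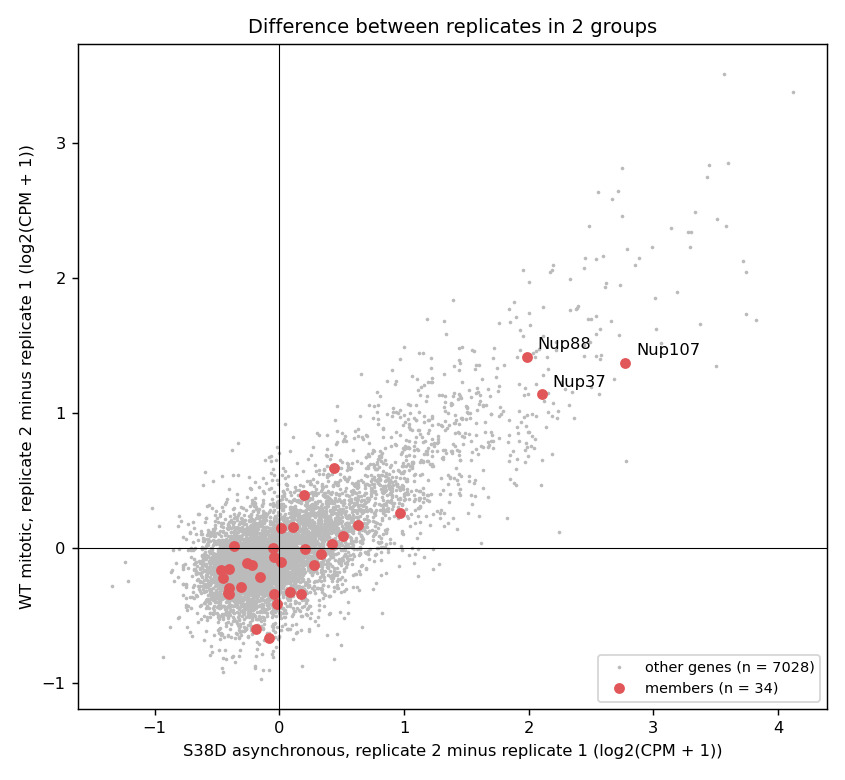
Each point is a gene of at least 10 CPM; the x axis is replicate 2 minus replicate 1 in S38D asynchronous cells and the y axis the same in WT mitotic cells, both in log2(CPM + 1), with members in colour. Nup107, Nup88 and Nup37 lie at the upper right, from 1.14 to 2.77 on the axes.

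The mutant lines were compared with WT in each state, which asks whether a change at serine 38 goes with other transcript levels. In asynchronous cells 3 members were higher in the S38A line (Nup50, Nup62 and Tnpo2) and 0 lower, against a background of 11.7% and 9.54% of tested genes (21.2% either way). At an unadjusted p under 0.05 there were 5 higher and 5 lower, beside 1904 higher and 1685 lower of all 10477 tested genes. DESeq2 called 3 members higher and 1 lower. Nup50 stood at 217 and 217 CPM in S38A and 135 and 142 CPM in WT libraries (log2 fold change 0.65, SE 0.138, adjusted p = 0.00351, edgeR). Nup62 stood at 395 and 400 CPM against 259 and 267 CPM (0.60, SE 0.106, adjusted p = 0.000973, edgeR), and Tnpo2 at 189 and 207 CPM against 129 and 142 CPM (0.55, SE 0.143, adjusted p = 0.0126, edgeR). The 2 S38A libraries lay above both WT libraries for each of the 3 genes. That pattern was found in 11 of the 39 tested members, the opposite in 11, and 17 overlapped. B cell markers differed in this comparison too: 7 of the 9 tested were higher and 0 lower. Their summed level had a mean of 3465 CPM in S38A and 2522 CPM in WT asynchronous libraries. The part of this in the result was not tested.

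The asynchronous S38A result depended on the scaling and on single libraries. Spike-in scaling moved the median of all genes by -0.45, and under it 0 members were higher and 12 lower, beside 1.93% and 29.7% of all tested genes, with Nup50 at 0.19 (adjusted p = 0.329), Nup62 at 0.14 (adjusted p = 0.450) and Tnpo2 at 0.09 (adjusted p = 0.666). Spike-ins made up 2.29% and 2.70% of gene reads in the WT asynchronous libraries and 2.83% to 3.60% in the other 10; the part of this in the result was not tested. Without WT asynchronous replicate 1 there was 1 member higher and 0 lower, without S38A asynchronous replicate 2 there were 2 higher and 0 lower, and without S38D asynchronous replicate 1 or 2 there were 5 higher and 3 lower. All tested genes moved with these fits: 4.29% were higher and 3.80% lower in the first, and 18.0% and 13.1% without S38D asynchronous replicate 1.

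In asynchronous S38D cells 1 member was higher, Nup62, and 1 lower, Ipo7, against a background of 4.87% and 4.12% (8.99% either way). Nup62 stood at 434 and 373 CPM against 259 and 267 CPM in WT cells (0.62, SE 0.106, adjusted p = 0.00175, edgeR), and it was 0.23 under spike-in scaling (adjusted p = 0.260). Nup62 was thus lower in WT asynchronous cells than in either mutant line, and the comparisons share these WT libraries. Ipo7, an importer of ribosomal proteins and histones, stood at 20.5 and 32.3 CPM against 46.7 and 37.1 CPM (-0.67, SE 0.203, adjusted p = 0.0489, edgeR). It was -0.37 (adjusted p = 0.339) without S38D asynchronous replicate 1 and -0.49 (adjusted p = 0.372) without WT asynchronous replicate 1, and its call was lost in 11 of the 12 fits that left out a library. Without S38D asynchronous replicate 2 there were 4 members higher and 3 lower, beside 16.9% and 12.9% of all tested genes in that fit.

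In mitotic cells 2 members were higher in the S38A line (Kpna3 and Kpnb1) and 2 lower (Nup210 and Tnpo2), against a background of 8.31% and 8.72% (17% either way). Kpnb1 stood at 170 and 168 CPM against 99.2 and 131 CPM in WT cells (0.56, SE 0.143, adjusted p = 0.0131, edgeR), and at 0.35 (adjusted p = 0.210) without WT mitotic replicate 1. Kpna3, an importin alpha, stood at 20.2 and 22.9 CPM against 14.7 and 11.4 CPM (0.72, SE 0.201, adjusted p = 0.0222, edgeR). Its call was lost with DESeq2 (0.71, adjusted p = 0.157). Nup210 stood at 49.5 and 54.2 CPM against 84.3 and 66.3 CPM (-0.54, SE 0.161, adjusted p = 0.0311, edgeR), and at -0.37 (adjusted p = 0.268) without WT mitotic replicate 1. Tnpo2 stood at 155 and 147 CPM against 227 and 195 CPM (-0.48, SE 0.142, adjusted p = 0.0284, edgeR). The call of Nup210 was also lost with DESeq2 (-0.545, adjusted p = 0.0762). Groups of 2 libraries often lie apart: of the 39 tested members, 17 had both S38A mitotic libraries above both WT ones, 9 had both below, and 13 overlapped.

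Groups did not overlap for these 4 genes, yet 0 members were called without S38A mitotic replicate 1 or without S38A mitotic replicate 2, and 0 under spike-in scaling. Without WT mitotic replicate 1 there were 2 higher and 0 lower. Without S38D asynchronous replicate 1 there were 6 higher and 3 lower (all tested genes 12.3% and 11.7%), and without S38D asynchronous replicate 2 there were 5 higher and 4 lower (11.6% and 12.4%).

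In mitotic S38D cells 0 members were called against WT in edgeR and 0 in DESeq2, beside a background of 4.56% of tested genes called in either direction (1.15% higher, 3.41% lower). At an unadjusted p under 0.05 there were 6 higher and 1 lower, beside 805 higher and 1102 lower of all 10477 tested genes. Without S38D asynchronous replicate 1 or 2 there were 2 higher and 1 lower, where all tested genes were at 4.34% and 5.60% in the first of these fits.

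**Figure D5:**
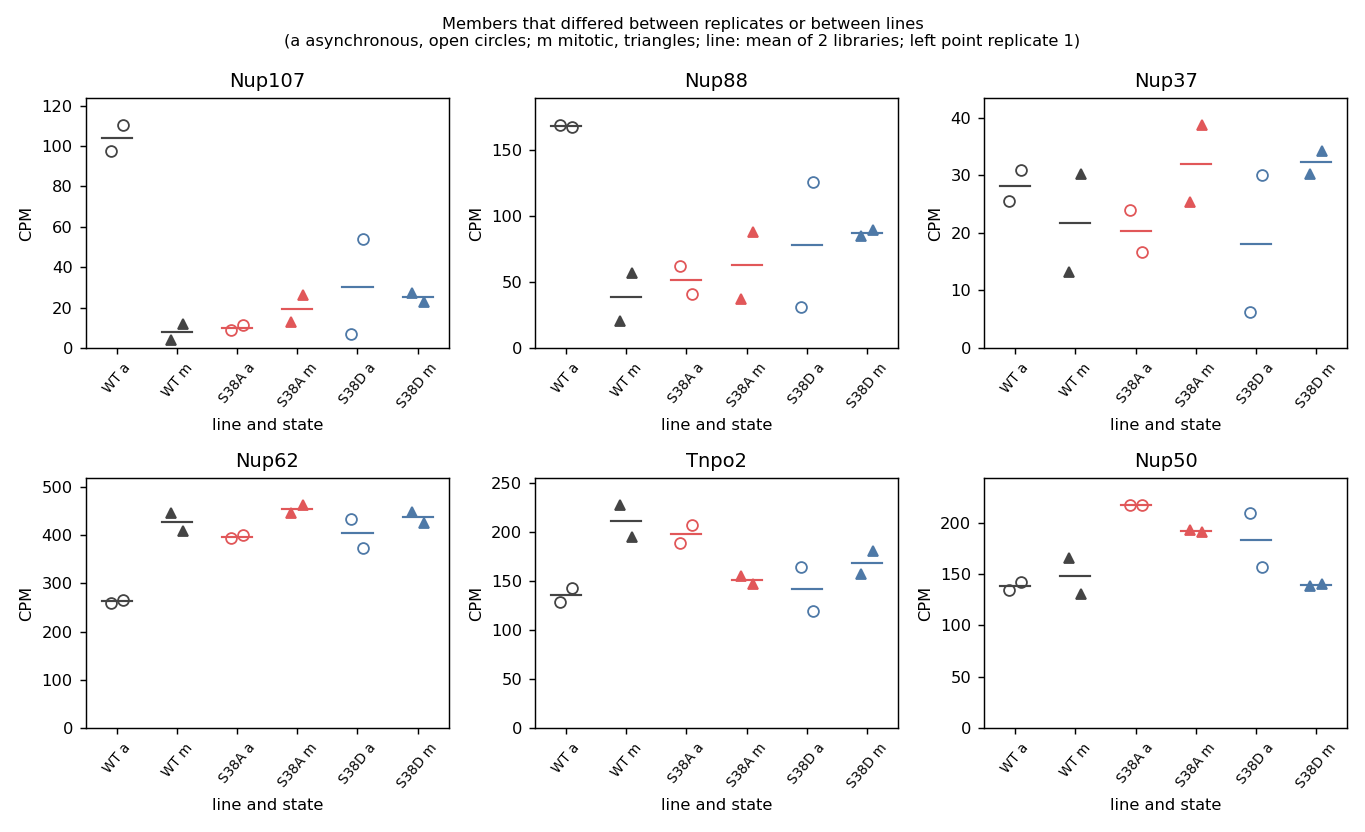
CPM of 6 members in every library by line and state, on linear axes from 0; circles are asynchronous, triangles mitotic and short lines the mean of 2 libraries. WT asynchronous cells stand highest for Nup107 and Nup88 and lowest for Nup62, and Tnpo2 moves in opposite directions in the WT and S38A lines.

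The mitotic change itself was compared between lines, with 3 differences tested as interaction terms over the same 12 libraries. Between S38A and WT 1 member was called, Tnpo2, against a background of 0.496% of tested genes called lower and 0.993% called in either direction. Tnpo2 went from 129 and 142 CPM to 227 and 195 CPM in WT cells, and from 189 and 207 CPM to 155 and 147 CPM in S38A cells. The 2 lines moved in opposite directions in both libraries, with log2 fold changes of 0.64 (adjusted p = 0.00434) and -0.39 (adjusted p = 0.0780, edgeR). The difference, S38A minus WT, was -1.03 (SE 0.202, adjusted p = 0.0258, edgeR). An unadjusted p under 0.05 was reached by 11 members and by 1992 of all 10477 tested genes.

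The Tnpo2 difference was -0.57 under spike-in scaling (adjusted p = 0.122), a scaling that moved the median of all genes by 0.46 in this comparison. It stayed between -0.96 and -1.15 without each single library of the WT and S38A lines except WT mitotic replicate 2, and there the adjusted p was 0.0686 to 0.212. Without WT mitotic replicate 2, 1 member was called lower. Without S38D asynchronous replicate 1 or 2 there were 2 members higher and 3 lower (all tested genes 4.48% and 6.77% in the first of these fits, 4.23% and 7.67% in the other), and without any of the other 9 single libraries 0. In S38D cells Tnpo2 stood at 164 and 119 CPM asynchronous and 157 and 180 CPM mitotic, where the states overlapped (0.25, adjusted p = 0.214, edgeR).

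Between S38D and WT 0 members were called in edgeR, beside a background of 0.401% either way (0.143% higher, 0.258% lower). An unadjusted p under 0.05 was reached by 6 members and by 2003 of all 10477 tested genes. DESeq2 called 1, Nup62, whose difference in edgeR was -0.59 (SE 0.149, adjusted p = 0.0887). Without S38D asynchronous replicate 2 there were 6 members higher and 4 lower, beside 10.9% and 14.6% of all tested genes in that fit. Between S38D and S38A 0 members were called in edgeR and in DESeq2, beside a background of 0.0382% either way (0.00954% higher, 0.0286% lower). An unadjusted p under 0.05 was reached by 1 member and by 852 of all 10477 tested genes.

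The rest of the transport pathway, 57 listed genes that the name rule leaves out, was set beside the members in the mean mitotic comparison. Of 55 tested genes 14 rose and 3 fell, with a median log2 fold change of 0.06. These are 25.5% and 5.46% of the list, beside 20.5% and 21.6% of all tested genes. Among 10 other nucleoporins 5 rose (Ahctf1, Ndc1, Pom121, Aaas and Rae1) and 0 fell. At an unadjusted p under 0.05 there were 6 higher and 0 lower, beside 2541 higher and 2705 lower of all 10477 tested genes. DESeq2 called 4 of these nucleoporins higher and 0 lower. Ahctf1 (ELYS), which seeds pore assembly on chromatin, had a mean of 20.4 CPM ± 3.90 (SD, n = 6) in asynchronous and 31.3 CPM ± 3.23 (SD, n = 6) in mitotic libraries, a log2 fold change of 0.62 (SE 0.116, adjusted p = 0.000449, edgeR). Ndc1, a transmembrane nucleoporin, went from 170 CPM ± 24.6 to 231 CPM ± 25.7 (SD, n = 6), a log2 fold change of 0.45 (SE 0.0659, adjusted p = 5.14e-05, edgeR).

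Of 7 tested genes of the Ran cycle, which sets the direction of transport, 2 rose and 1 fell in edgeR, and DESeq2 called Ranbp1 alone. Ranbp2, the large cytoplasmic filament protein, had a log2 fold change of 0.50 (adjusted p = 0.0499), Ranbp1, a cofactor of GTP hydrolysis by Ran, one of 0.35 (adjusted p = 0.000237), and Ran itself one of -0.15 (adjusted p = 0.0421, edgeR). Of 5 other transport receptors 0 were called in edgeR, with 0 at an unadjusted p under 0.05, and DESeq2 called 1 lower, the tRNA exporter Xpot. In mRNA export 4 of 20 rose and 1 fell (3 and 0 in DESeq2, without Thoc5 and Nxf1), with Ddx19b, a helicase at the cytoplasmic face, at 0.44 (adjusted p = 0.00182), Ddx19a at 0.30 (adjusted p = 0.00829) and Thoc5 at -0.23 (adjusted p = 0.0219, edgeR). In the lamina and envelope 3 of 13 rose and 1 fell (2 and 1 in DESeq2, without Lemd2), with the lamin gene Lmnb2 at 0.37 (adjusted p = 0.00738), Lemd2 at 0.31 (adjusted p = 0.0214) and Tmpo, which encodes the lamina-associated LAP2 proteins, at -0.50 (adjusted p = 0.0263, edgeR).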

How the data were processed

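The authors deposited 1 table per library, 12 in all, with raw counts of reads for 51826 genes and 92 ERCC spike-ins, not normalized. Per the submitters' processing notes, the build was mm10 and the tools included STAR 2.5.3a, cutadapt 1.12 and bcl2fastq 2.16.0.10. No source used here gives the counter, its annotation, its use of strand or how it treated reads that match several genes. Of the gene IDs 51633 (99.63%) matched GENCODE M21 (GRCm38), which gave symbols, types and coordinates. The members, roles, lists and tests were chosen with earlier results of these data known.

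Counts were fitted in edgeR 4.0.16 (limma 3.58.1, R 4.3.3) as group means over all 12 libraries, with TMM scaling (factors 0.96 to 1.04), a filter at a count of 10 that kept 10477 genes, and robust quasi-likelihood tests with 6 residual degrees of freedom (prior 9.95; biological coefficient of variation 0.143). Benjamini-Hochberg adjustment ran over all tested genes, with calls at 0.05, for 11 comparisons. The SE is the log2 fold change divided by the square root of F. Alternatives were DESeq2 1.42.0 (its size factors, and its Wald test), ERCC scaling, no filter, a filter of 10 CPM in 2 libraries, only the groups compared, a replicate block, each library left out, and 2 libraries left out together. The script was tested on simulated counts. Gene ends were compared with blastn 2.17.0 over the last 300 bases.

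Values per library are given for the called members with the largest log2 fold changes at 10 CPM or more, the member with the smallest p in each role, called members of each difference, and Kpna2, Kpnb1, Xpo1, Nup98, Nup153 and Nup210. Nup107, Nup88, Nup37 and some further members are named after their values were seen. Of the pathway lists the first 2 called genes in each direction were named.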

Additional observations from a re-analysis of the deposited data

Results flagged for a closer look

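The mitotic change of Tnpo2 was set apart because it differed between 2 lines in a test of the difference itself. Tnpo2, an import receptor for RNA-binding proteins, was higher in both WT mitotic libraries than in both WT asynchronous ones and lower in both S38A mitotic libraries than in both S38A asynchronous ones, and the difference, S38A minus WT, was -1.03 (SE 0.202, adjusted p = 0.0258, edgeR). It was 1 of 39 tested members, in a comparison that called 0.993% of all tested genes. The call was lost under spike-in scaling (-0.57, adjusted p = 0.122) and in 9 of the 12 fits that left out a library, where the difference was -0.96 to -1.15 (adjusted p 0.0520 to 0.212).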

How the results depend on the processing

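Counts of called members were recomputed under each alternative. The share of all tested genes called moved with the fit too. In the mean mitotic comparison 20.5% were higher with TMM scaling, 9.88% with ERCC scaling and 15.3% in the DESeq2 Wald test. These shares are not given beside each count below, so a changed count is no result about the members. With ERCC scaling they were 6 in the mean mitotic comparison, 5, 1 and 2 in the WT, S38A and S38D lines, 12 and 1 for S38A and S38D against WT in asynchronous cells, and 0 for S38A against WT in mitotic cells. Without a filter there were 5 (mitotic, S38A), 7 and 7 (S38A against WT, asynchronous and mitotic), 1 (S38D against WT, mitotic), 3 (change, S38A minus WT) and 2 (S38D minus WT). With only the groups compared there were 9 and 0 (mitotic, S38A and S38D), 11 and 0 (S38A and S38D against WT, asynchronous) and 4 (S38A minus WT). The DESeq2 Wald test gave 5 (mitotic, S38D), 1 (S38D against WT, asynchronous), 2 (S38A against WT, mitotic), 2 (S38A minus WT) and 1 (S38D minus WT). DESeq2 size factors and the 10 CPM filter each gave 1 for S38D against WT in asynchronous cells. Without both libraries that lay far from their replicates there were 9 (mitotic, S38A), 13 and 7 (S38A against WT, asynchronous and mitotic), 5 (S38A minus WT) and 1 (S38D minus S38A).

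Leaving out each library in turn gave 11 to 16 (mean mitotic), 1 to 14, 0 to 4 and 3 to 10 (WT, S38A, S38D), 1 to 8 and 1 to 7 (S38A and S38D against WT, asynchronous), 0 to 9 and 0 to 3 (the same, mitotic), 0 to 5 (S38A minus WT), 0 to 10 (S38D minus WT) and 0 to 1 (S38D minus S38A). Fits that left out 1 library of a group assume that the lone one varies like the other groups.

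Direction turned for Kpnb1 (-0.0801) and Xpo1 (-0.14) in the mean mitotic comparison with ERCC scaling, and for Xpo1 without WT asynchronous replicate 2 (-0.0267, the low end of a range up to 0.103 over single libraries), S38D asynchronous replicate 1 (-0.0125), S38D mitotic replicate 1 (-0.0114) or both far libraries (-0.004). Nup37 turned to 0.14 (mitotic, WT) without WT mitotic replicate 1, to 0.14 without both far libraries, and to 0.11 and 0.12 (S38D against WT, asynchronous) without S38D asynchronous replicate 1 and without both; over single libraries it ranged from -1.09 and from -2.13. The cause was not tested.

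Over all single-gene results 755 kept direction and side of the threshold, 153 lost a call, 19 gained one and 10 turned. Of 15 correlations of replicate differences between groups 3 were above 0.1 and 3 below -0.1, from -0.454 to 0.829 over 5516 genes, so the replicate numbers were not taken to pair the samples. With the replicate block the count for S38A against WT in asynchronous cells was 5, beside 3 without it, and 13 in the mean mitotic comparison, as without it. Depth limits Nup54, Nup98, Nup160, Xpo4 and Xpo5, with means under 10 CPM.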
